A study of Mus musculus with 18 samples.

Results

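Mouse small intestinal crypt organoids grown in collagen type I with ENRW medium were compared with the same kind of organoids grown in Matrigel with ENR medium, both without 5-fluorouracil (5-FU). The members of the comparison are the 6 libraries titled COL_Control (3, collagen) and MG_Control (3, Matrigel) of the 18 libraries in the series, and every gene of the table was examined, 55414 in all. All 6 cultures came from C57BL/6J wild-type mice, were plated as 30 µL domes, received no drug and were harvested for RNA on day 6. Matrigel is a basement membrane extract, and ENR medium held EGF at 50 ng/mL, Noggin at 100 ng/mL and R-spondin 1 at 400 ng/mL. Collagen type I is a fibrillar matrix of connective tissue, and the composition of ENRW was not given in the sources used here. Matrix and medium changed together, so their parts in any difference below cannot be told apart. The series also held the same pair of matrices with 40 µM 5-FU added from day 4 (MG_5FU and COL_5FU), crypts in collagen with 25% cWRNE medium (COL_cWRNE) and villus-derived cultures, with 3 libraries in each of its 6 groups. The series states that the replicates are biological; the number of animals behind them was not stated, and crypts in culture hold epithelium without the surrounding stroma, so the groups model the epithelium alone.

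An intestinal organoid in Matrigel usually forms a closed epithelium with crypt-like buds, in which Lgr5+ stem cells sit between Paneth cells and give rise to absorptive and secretory cells. Cells attach to laminin mainly through integrins alpha 6 beta 4 and alpha 3 beta 1, and to fibrillar collagen through integrin alpha 2 beta 1 and the receptor kinase DDR1. Attachment and cell tension are read by YAP, a transcriptional co-activator that acts through TEAD factors, and YAP activity is known to accompany a fetal-like repair state of the intestinal epithelium. Wnt ligands, which Paneth cells supply in the crypt, and Notch signalling between neighbours keep the stem cells and set the choice between absorptive and secretory fate.

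The 6 libraries held 25.8 M to 31.5 M estimated counts, and the 18 libraries 22.3 M to 34.5 M. Levels are counts per M counts of the library (CPM) after scaling between libraries, differences are given as log2 fold changes (collagen minus Matrigel, so that 1 is a doubling) with their standard error (SE), and genes with an adjusted p under 0.05 in edgeR's quasi-likelihood test over all genes are termed called. The labelled cell type was checked against its markers: 8 epithelial genes summed to 9540 to 10700 CPM in the Matrigel libraries and to 11100 to 13300 CPM in the collagen libraries. Epcam, an epithelial adhesion molecule, averaged 1510 ± 84.5 CPM in Matrigel and 1750 ± 176 CPM in collagen (SD, n = 3), a log2 difference of 0.20 ± 0.09 that was not called (adjusted p = 0.102). It was called with library totals, a filter at 10 CPM, TPM, or without COL_Control replicate 1. Of the 8 genes 2 were higher, Krt18 (0.66) and Cdh1 (0.41), and none lower. The call of Cdh1 was lost without MG_Control replicate 1, MG_Control replicate 2 or COL_Control replicate 2. The 16 mesenchymal markers summed to 5.42 to 6.9 CPM in Matrigel and 1.83 to 3.25 CPM in collagen with 9 to 12 of them at 0, and the 6 endothelial markers to at most 0.779 CPM. The 14 immune markers summed to 4.83 to 14.2 CPM in Matrigel and 11.2 to 17.9 CPM in collagen with 7 to 10 of them at 0, and of these the lysosomal gene Cd68 was at 0.786 ± 0.336 and 9.34 ± 3.63 CPM (log2 difference 3.56 ± 0.40). The share of mitochondrial counts was 1.12% to 1.41% in Matrigel and 0.75% to 0.92% in collagen, without overlap, and its part in the results was not tested. The library of COL_Control replicate 3 stood apart: it held 738 counts of 4 Y-linked genes beside 177 CPM of Xist, whereas the other 17 libraries carried either many Y-linked counts with Xist at no more than 0.536 CPM, or Xist at 172 CPM or more with at most 1 Y-linked count. Without it, 4485 genes were called, and 15 of the 231 genes named and called here lost their call. Among these were Acly, Ang4, Cenpf, Cnn3, Crim1, Gsta4, Lrig3, Mvd, Nuak2, Reg3b, Soat1, Srebf2 and Tff1.

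Of 16611 genes with enough counts to test, 5188 (31.2%) were called, 2628 (15.8%) higher and 2560 (15.4%) lower in collagen. Every list count below is to be read beside these shares. The differences were large for many of them: 1239 called genes were higher and 976 lower with a log2 fold change of 1 or more in size, and 321 and 300 with at least 3. The CPM of the 3 collagen libraries did not overlap with that of the 3 Matrigel libraries for 43.4% of the tested genes. The median log2 difference over all tested genes was 0.04. With the deposited TPM in place of counts, 4863 genes were called, 72.8% of them higher against 50.7% here, and with library totals in place of scaling 59.7% of the called genes were higher. Of the called genes named below, Agr2, Atoh1, Cdhr2, Cldn15, Cldn2, Fen1, Fras1, Gsta4, Itln1, Krt20, Lyz1, Mcm5, Pigr, Reg3b, Rpsa, Sesn1, Vim and Wnt9b lost their call when all 18 libraries shared the fit, as did Ang4, Cenpf, Cnn3, Crim1, Lrig3, Mvd, Soat1, Srebf2 and Tff1 of the preceding paragraph. With TPM, calls of Axl, Gata4 and Nuak2 were lost, and so were those of Cldn15, Fen1, Mcm5, Pigr, Reg3b, Rpsa and Sesn1 and, of the preceding paragraph, Ang4, Cnn3, Crim1, Lrig3 and Tff1. In bulk RNA, fewer cells of a type and less RNA per cell cannot be told apart, which holds for every cell type described below.

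**Figure D1:**
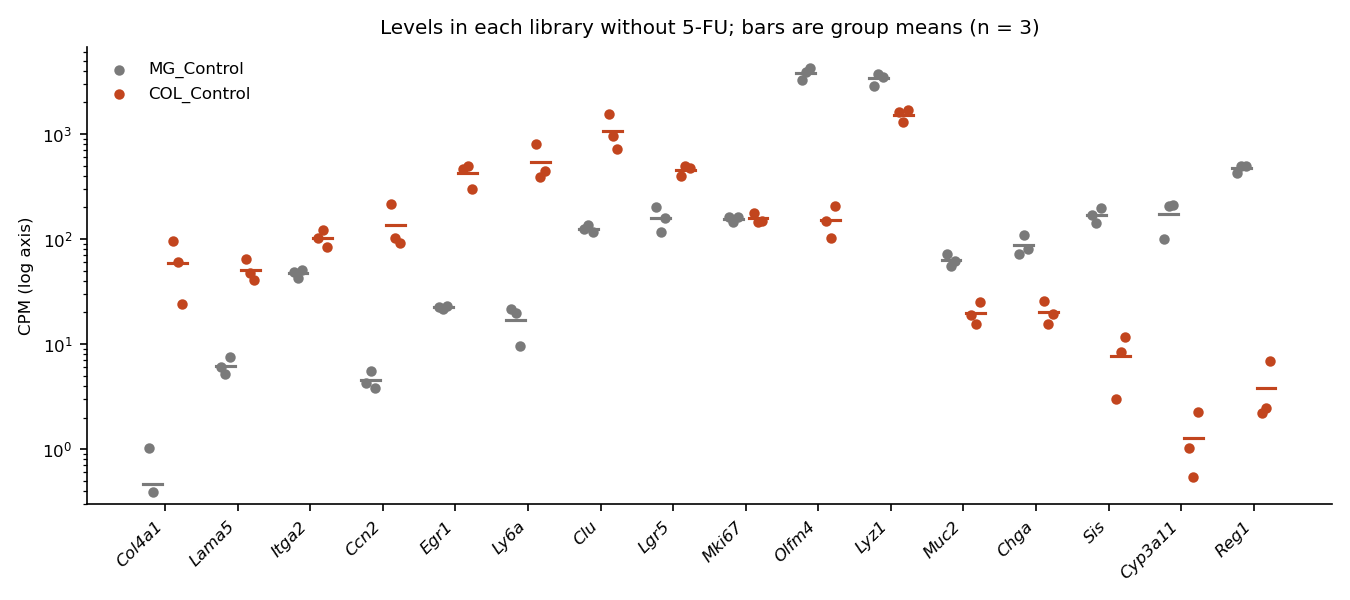
CPM on a log axis of 16 genes in the 3 Matrigel (MG_Control, grey) and 3 collagen (COL_Control, orange) libraries, with a bar at each group mean; 1 Matrigel library with Col4a1 at 0 lies off the axis. Only for Mki67 among these genes do the points of the groups overlap (156 ± 8.81 and 157 ± 16.5 CPM).

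Receptors for the new matrix were moderately higher in collagen. Itga2 (ENSMUSG00000015533.10), the collagen-binding alpha 2 integrin, was at 48.6, 43 and 50.5 CPM in Matrigel and at 103, 123 and 84.3 CPM in collagen. Ddr1, the receptor kinase for collagen, was at 49.4, 42.7 and 52.2 CPM in Matrigel and at 115, 109 and 104 CPM in collagen. The groups did not overlap for either gene, and the log2 fold changes were 1.12 ± 0.14 (SE, adjusted p = 5.66e-05) and 1.18 ± 0.11 (adjusted p = 5.22e-06). Itgb1, the beta 1 subunit shared by many matrix receptors, was higher by 0.59 ± 0.13 (adjusted p = 0.0033). These were the 3 called members of 5 tested collagen I receptors, whose median log2 difference was 0.59 beside 0.04 for all genes. Itga1, which pairs with beta 1 as a further collagen receptor, was not called (0.46 ± 0.21, adjusted p = 0.119), but it was called with a replicate block and without MG_Control replicate 3. With the block, 4 members were higher.

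Laminin receptors moved less evenly. Of 9 tested, 4 were higher and 1 lower (median 0.23), beside 15.8% and 15.4% of all tested genes. Bcam, a receptor for laminin alpha 5, was at 9.22, 10.9 and 13.2 CPM in Matrigel and at 77, 53.9 and 41.5 CPM in collagen (log2 fold change 2.35 ± 0.20, adjusted p = 1.87e-06). The syndecan Sdc1 and the integrin Itgb4 were both higher by 0.84 (SE 0.08 and 0.12), whereas Itga6, the partner of Itgb4 in hemidesmosomes, was at 218 ± 27.3 and 257 ± 37.1 CPM and was not called (0.23 ± 0.13, adjusted p = 0.218). The lower member was Rpsa, which encodes a ribosomal protein also known as a laminin receptor (-0.42 ± 0.12, adjusted p = 0.0172), and its call ended without MG_Control replicate 2 or COL_Control replicate 2.

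The list of fibronectin and RGD receptors, which also held Cd44 and Plaur, was higher in 6 of 8 tested members and lower in none (median 1.32). Cd44, the hyaluronan receptor and a Wnt target, was higher by 1.48 ± 0.13, Itgav by 1.40 ± 0.17 and its epithelial partner Itgb6 by 1.25 ± 0.24. Plaur, the urokinase receptor, was at 34.2, 33.7 and 19.2 CPM in Matrigel and at 183, 95.4 and 97.7 CPM in collagen (2.11 ± 0.27, adjusted p = 5.66e-05). Itgb8 had 1 count over the Matrigel libraries and 54 over the collagen libraries, a ratio of 53.8 with a 95% exact interval of 9.25 to 2160 that covers counting error only.

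Basement membrane is what Matrigel supplies and collagen type I does not. Of 19 tested components, 11 were higher and 1 lower, with a median of 0.97. Col4a1 (ENSMUSG00000031502.12), a chain of collagen IV, was at 1.02, 0.393 and 0 CPM in Matrigel and at 95, 60.2 and 24.2 CPM in collagen, a log2 fold change of 7.04 ± 0.77 (adjusted p = 1.56e-05). Its partner chain Col4a2 went from 2.01, 0.357 and 0 CPM to 76.5, 49.7 and 23.7 CPM (6.05 ± 0.76, adjusted p = 5.18e-05). Both genes were thus near 0 in every Matrigel library, and among the collagen libraries replicate 3 was the lowest for both. Col4a5 had no count in Matrigel and 58 counts in collagen, at least 19.3-fold higher against a floor of 3 counts over the group. Lama5, the laminin alpha 5 chain, was at 6.07, 5.18 and 7.47 CPM in Matrigel and at 64.2, 47.2 and 40.8 CPM in collagen (3.01 ± 0.18, adjusted p = 1.55e-07). Agrn, the heparan sulfate proteoglycan agrin, was higher by 1.69 ± 0.13. The exception was Fras1, an extracellular protein of the embryonic basement membrane (-1.68 ± 0.56, adjusted p = 0.0373), whose call was lost without MG_Control replicate 2, COL_Control replicate 1 or COL_Control replicate 2.

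Genes of focal adhesions and the actin cytoskeleton were higher in 13 of 33 tested members and lower in 2 (median 0.34). Over all tested genes, 15.8% were higher and 15.4% lower. Cnn2 (calponin 2) was higher by 2.63 ± 0.23, Pdlim7 by 2.29 ± 0.22 and Tpm4 (tropomyosin 4) by 1.24 ± 0.12. Tpm2 and the myosin light chain Myl9, both typical of contractile cells, went from 0.281 ± 0.201 to 10.2 ± 6.52 CPM and from 2.91 ± 2.36 to 41.2 ± 19.3 CPM. Vim, a mesenchymal filament that is not on this list, moved the other way from 4.78 ± 0.496 to 1.39 ± 0.745 CPM (-1.79 ± 0.57, adjusted p = 0.0286). Its call ended without any of 4 single libraries. Of the 2 lower members, Tgm2, a protein cross-linker, was lower by 1.10 on the log2 scale (SE 0.22). The other, Cnn3, was lower by 0.35 (SE 0.11), a call lost without any of 4 single libraries. With library totals in place of scaling, 19 members of this list were higher.

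Proteases and inhibitors that act on matrix were higher in 10 of 15 tested members and lower in none, with a median of 1.69, and 8 were higher without COL_Control replicate 3. Plat, tissue plasminogen activator, was at 18.8, 17.2 and 10.6 CPM in Matrigel and at 180, 132 and 123 CPM in collagen (3.22 ± 0.23, adjusted p = 4.04e-07). The membrane-type metalloprotease Mmp15 (1.69 ± 0.12), the lysosomal protease Ctsl (1.69 ± 0.19) and the inhibitor Timp2 (2.59 ± 0.46) were also higher. Mmp7, the Paneth cell protease that activates defensins, was at 146, 147 and 123 CPM and at 236, 134 and 139 CPM, groups that overlapped (0.28 ± 0.18, adjusted p = 0.263).

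Of 23 tested YAP targets, 18 were higher in collagen and 1 lower, with a median of 2.27. Ccn2 (ENSMUSG00000019997.12), which encodes the secreted matricellular protein CTGF, was at 4.24, 5.5 and 3.83 CPM in Matrigel and at 218, 102 and 91.4 CPM in collagen. Its log2 fold change was 4.91 ± 0.35 (adjusted p = 4.04e-07). Ccn1 (CYR61), its close relative, was at 21.2, 29.3 and 24.9 CPM and at 200, 135 and 91.1 CPM (2.49 ± 0.27, adjusted p = 1.35e-05). Ankrd1, a nuclear ankyrin repeat protein, had 2 counts over the 3 Matrigel libraries and 26.9, 12.7 and 4.35 CPM in collagen, a ratio of 668 with a 95% exact counting interval of 185 to 5520. The 3 collagen libraries kept the same order for Ccn1, Ccn2 and Ankrd1, with replicate 1 highest and replicate 3 lowest, and each was above all Matrigel libraries. F3 (tissue factor, 2.75 ± 0.24), the LIM protein Ajuba (1.88 ± 0.17), the membrane repair protein Myof (3.31 ± 0.32) and Amotl2 (2.27 ± 0.25), a YAP-binding protein of cell junctions, were higher as well. Axl, a receptor kinase, was at 0 in Matrigel and at 62 counts in collagen, at least 20.6-fold higher. Nuak2, a kinase, was the lower member (-0.57 ± 0.19, adjusted p = 0.039), and it was not called without COL_Control replicate 3 or 3 other single libraries, nor with library totals, with the 6 libraries alone, with TPM or with a replicate block, under which no member of the list was lower.

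The stretches upstream of Ankrd1 and Ccn1 are shown because TEAD factors, the DNA-binding partners of YAP, are known to read the hexamer GGAATG. Promoter windows of 250 bases before the start were taken from RefSeq (build GRCm38.p6) for the 17 of 24 list members found there, and the hexamer was searched on both strands as its only motif. It was present in 7 members (Ajuba, Amotl2, Ankrd1, Axl, Ccn1, Crim1 and Ptpn14), or 38.9% of the list's 18 windows, and in 12.6% of all 32851 windows. A match describes these letters and not a bound site. The list is one of known YAP targets, so its share does not bear on collagen against Matrigel. The stretches run from 250 to 71 bases before the RefSeq start on the minus strand, at chr19:36119915-36120094 for Ankrd1 and chr3:145650056-145650235 for Ccn1, and capitals mark the hexamer or its reverse complement CATTCC.
Ankrd1: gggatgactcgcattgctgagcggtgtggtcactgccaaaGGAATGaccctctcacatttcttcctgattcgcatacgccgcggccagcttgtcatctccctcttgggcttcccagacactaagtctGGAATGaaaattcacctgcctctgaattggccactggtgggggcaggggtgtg
Ccn1: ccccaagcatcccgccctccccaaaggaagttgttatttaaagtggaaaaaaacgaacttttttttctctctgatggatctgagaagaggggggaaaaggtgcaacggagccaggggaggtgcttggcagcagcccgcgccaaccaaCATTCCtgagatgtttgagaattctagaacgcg
The Ankrd1 stretch holds 2 copies of the hexamer and the Ccn1 stretch 1.

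Immediate early genes, which respond within minutes to growth factor or mechanical signals, and heat shock genes were higher in 14 of 16 tested members and lower in none (median 2.43). Egr1 was at 22.5, 21.5 and 23.2 CPM in Matrigel and at 467, 501 and 302 CPM in collagen (4.23 ± 0.19, adjusted p = 2.18e-08). Fos was at 21.6, 31.3 and 19 CPM and at 403, 348 and 219 CPM (3.75 ± 0.25, adjusted p = 2.77e-07). The inducible HSP70 genes Hspa1a and Hspa1b were higher by 3.89 ± 0.25 and 3.43 ± 0.19, although reads of these near-identical copies may have been split between them. Junb and Jun were higher by 2.25 ± 0.16 and 1.42 ± 0.12.

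Of 30 tested markers of the fetal-like and regenerative epithelium, 25 were higher and 1 lower, with a median of 2.60. This was the largest median among the 43 lists used, beside 2.43 for the immediate early and heat shock list. The lists were chosen with earlier results of these data known, so the rank is a description only. Ly6a (ENSMUSG00000075602.11), the surface protein Sca-1, was at 21.6, 19.9 and 9.6 CPM in Matrigel and at 801, 389 and 441 CPM in collagen (5.00 ± 0.39, adjusted p = 9.34e-07). Clu, the secreted chaperone clusterin that marks revival stem cells, was at 125, 135 and 116 CPM and at 1540, 954 and 718 CPM (3.09 ± 0.26, adjusted p = 1.88e-06). The lowest collagen library was above the highest Matrigel library by a wide margin for both genes. Anxa1, an annexin of the fetal programme, was at 18.4, 16.8 and 7.87 CPM and at 439, 237 and 175 CPM (4.31 ± 0.40, adjusted p = 3.83e-06). Msln (mesothelin) was at 25, 18.3 and 9.9 CPM and at 517, 315 and 182 CPM (4.26 ± 0.48, adjusted p = 2e-05). In all 4 genes replicate 1 was the highest of the collagen libraries. Emp1 (1.87 ± 0.11), the tubulin Tubb6 (3.85 ± 0.28), the alarmin Il33 (4.80 ± 0.40) and the annexins Anxa2 (1.55 ± 0.14) and Anxa5 (2.74 ± 0.23) were also higher. The single lower member was the cytokine Il18, at 10.9, 11.6 and 11.3 CPM and at 1.11, 0.542 and 0.435 CPM (-4.00 ± 0.36, adjusted p = 2.91e-06).

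Keratins and junction genes moved in part, beside 15.8% of all tested genes that were higher and 15.4% that were lower. Of 12 tested keratins 5 were higher and 2 lower, among them Krt23 (2.12 ± 0.19), Krt4 (3.63 ± 0.43) and the simple-epithelium keratin Krt7 (1.10 ± 0.22) higher, and Krt20 (-0.91 ± 0.16), a keratin of differentiated surface cells, and Krt15 (-2.16 ± 0.53) lower. Krt15 reached -3.27 without COL_Control replicate 1 and was not called with the 6 libraries alone. Of 16 claudins and tight junction genes 6 were higher and 2 lower (median 0.22). Cldn4, which tightens the paracellular barrier, was higher by 2.02 ± 0.18, and Cldn2, which forms cation pores, by 0.78 ± 0.09, whereas Marveld3 (-0.65 ± 0.11) and Cldn15 (-0.71 ± 0.18) were lower.

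**Figure D2:**
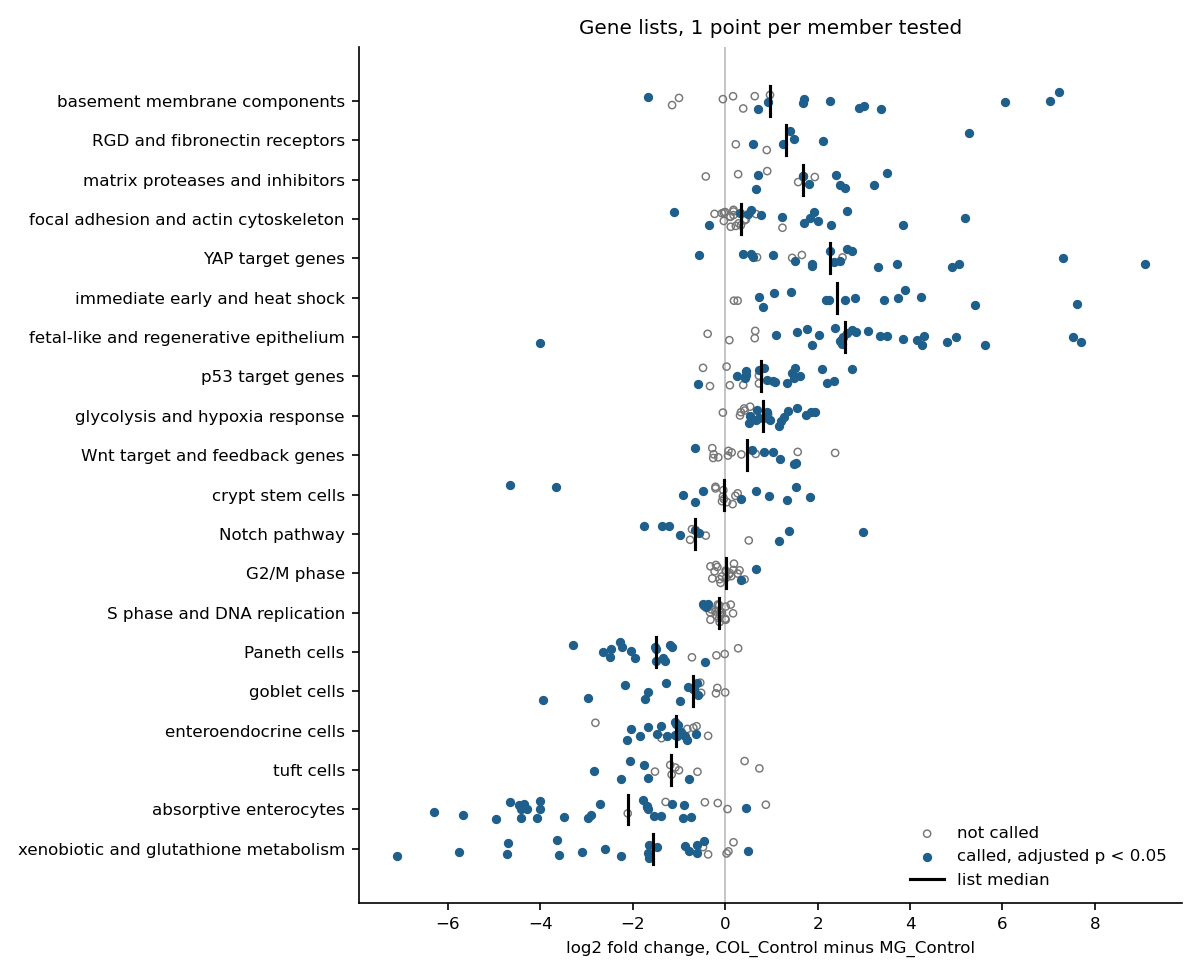
Log2 fold change (collagen minus Matrigel) of every tested member of 20 gene lists, filled where called, with a bar at the list median; genes with no count in a group are plotted at their fitted value, which is no bound. Basement membrane, YAP, immediate early, fetal-like and glycolysis members lie mostly to the right of 0, Paneth, goblet, enteroendocrine, enterocyte and xenobiotic members to the left, and the cell cycle lists are centred near 0 (medians 0.02 and -0.13).

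Wnt ligands themselves differed. Wnt7b, an epithelial Wnt ligand, had no count in the 3 Matrigel libraries and was at 18.2, 10.8 and 6.38 CPM in collagen, at least 354-fold higher against a floor of 3 counts over the group (adjusted p = 6.96e-06). Wnt10a was likewise at 0 in Matrigel and at 11, 3.86 and 2.03 CPM in collagen, at least 171-fold higher (adjusted p = 7.9e-05). Wnt3, the main Wnt ligand of Paneth cells, was at 10.3 ± 1.10 and 10.3 ± 1.45 CPM and did not pass the test (-0.01 ± 0.16, adjusted p = 0.98). Wls, the carrier that brings Wnt proteins to the surface, was higher by 1.29 ± 0.14, and the co-receptor Lrp5 by 1.01 ± 0.14. Wnt9b was lower, from 1.09 ± 0.267 to 0.0575 ± 0.0546 CPM (-4.16 ± 0.89). In all, 7 of 16 Wnt ligands, receptors and secretion factors were higher and 3 lower. Among 18 Wnt targets and feedback genes, 6 were higher and 1 lower (median 0.47), a share called that lies near the 31.2% of all genes. Rnf43, a feedback inhibitor, was higher by 1.04 ± 0.14 and the factor Tcf7 by 0.85 ± 0.13. Axin2, the most used readout of canonical Wnt signalling, was at 50.3, 39.8 and 47.5 CPM in Matrigel and at 39.4, 39.5 and 37.4 CPM in collagen, and was not called (-0.25 ± 0.11, adjusted p = 0.112).

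Stem cell markers split. Of 21 tested, 6 were higher, 5 lower and 10 not called (median -0.03), beside 15.8% of all tested genes higher and 15.4% lower. Lgr5 (ENSMUSG00000020140.16), the R-spondin receptor that marks crypt base stem cells, was at 201, 116 and 157 CPM in Matrigel and at 399, 499 and 470 CPM in collagen (1.53 ± 0.25, adjusted p = 0.000412). Olfm4, a secreted glycoprotein used as a marker of the same cells and a known Notch-responsive gene, was at 3240, 3930 and 4270 CPM in Matrigel and at 148, 103 and 207 CPM in collagen (-4.65 ± 0.33, adjusted p = 3.97e-07). The 2 markers therefore differed in opposite directions, each without overlap between the groups. Tnfrsf19 (1.84 ± 0.20), Prom1 (0.94 ± 0.14) and Igfbp4 (1.33 ± 0.22) were higher. The water channel Aqp4 fell from 93.1, 95.8 and 85.6 CPM to 3.5, 10.7 and 7.61 CPM (-3.66 ± 0.41, adjusted p = 1.8e-05), and the stem cell factor Ascl2 was lower by 0.66 on the log2 scale (SE 0.12). Smoc2 and Sox9 were not called, at 728 ± 59.8 and 754 ± 36.2 CPM and at 159 ± 15.2 and 157 ± 14 CPM.

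Notch genes were lower in 6 of 13 tested members and higher in 3 (median -0.66), beside 15.4% and 15.8% of all tested genes. Hes1, the main Notch effector, was at 83.5, 80.9 and 75.8 CPM in Matrigel and at 31.9, 32.4 and 29.5 CPM in collagen (-1.36 ± 0.10, adjusted p = 4.04e-07). The ligand Dll1, made by secretory progenitors, was at 55.8, 56.3 and 61.9 CPM and at 14, 17.7 and 20.3 CPM (-1.75 ± 0.17, adjusted p = 5.53e-06), and Dll4 was lower by 1.22 on the log2 scale (SE 0.17). The Jagged ligands went the other way, Jag2 by 1.38 ± 0.16 and Jag1 by 1.16 ± 0.21, as did the receptor Notch3 (2.99 ± 0.62). The log2 difference of Notch3 ranged from 0.71 to 4.16 under the alternatives. Atoh1, the factor that starts secretory fate, was lower at 15.3 ± 2.29 CPM against 29.9 ± 2.15 CPM (-0.97 ± 0.14). With 1 library left out, 4 to 5 members were lower.

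Ligands of the EGF receptor were mostly higher: 8 of 12 tested members of the family and its regulators were higher and 1 lower (median 0.83). Hbegf was at 15.9, 14.7 and 12.3 CPM in Matrigel and at 106, 74.1 and 67.9 CPM in collagen (2.53 ± 0.16, adjusted p = 1.81e-07). Btc (1.35 ± 0.15), Tgfa (0.92 ± 0.14) and Areg (1.74 ± 0.27) were higher too, with Errfi1 (1.16 ± 0.13), a feedback inhibitor of the receptor. Of 16 BMP and TGF-beta genes 8 were higher and 2 lower, with a median of 1.21, or 0.82 with the 4 genes at 0 in Matrigel set at their bounds. Bmp8b was at 4.98, 4 and 3.01 CPM and at 113, 76.3 and 78.8 CPM (4.49 ± 0.20, adjusted p = 2.18e-08). Tgfb1 was higher by 2.35 ± 0.27 and the BMP target Id2 by 1.48 ± 0.17. Tgfbi was lower (-4.62 ± 0.79), but the size of its log2 difference depended on the processing, from -5.06 to -0.96 under the alternatives.

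Genes of the differentiated lineages were mostly lower or not called in collagen. Among Paneth cell genes 16 of 20 tested were lower and none higher, with a median of -1.49. Lyz1 (lysozyme) was at 2860, 3750 and 3520 CPM in Matrigel and at 1620, 1290 and 1680 CPM in collagen (-1.15 ± 0.15, adjusted p = 6.48e-05), and this call was lost when all 18 libraries shared the fit (adjusted p = 0.144). The alpha-defensins were lower by more: Defa23 was at 425, 367 and 334 CPM and at 91.9, 67.5 and 81 CPM (-2.23 ± 0.12, adjusted p = 4.87e-08), and Defa21, Defa30 and Defa34 were lower by 2.64, 2.03 and 2.49 on the log2 scale (SE 0.14, 0.13 and 0.16). The defensin genes are near-identical copies, so single-gene values are uncertain. They also make up most of the tested list, so its count and median rest largely on this family. The lectin Itln1 was lower (-1.20 ± 0.16), whereas Mmp7 and Wnt3, listed with Paneth cells as well, were among the 4 members not called.

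Goblet cell genes were lower in 12 of 17 tested members and higher in none (median -0.69). Over all tested genes, 15.4% were lower, the share beside which this and the next 2 lists are read. Muc2, the main gel-forming mucin, was at 71.6, 55.7 and 62 CPM in Matrigel and at 18.8, 15.7 and 24.9 CPM in collagen (-1.68 ± 0.14, adjusted p = 2e-06). Klk1, a kallikrein, was lower (-2.96 ± 0.18), as were the lectin Zg16 (-3.95 ± 0.35) and Agr2 (-1.28 ± 0.15), which folds mucins. Enteroendocrine genes were lower in 17 of 24 tested members and higher in none (median -1.06), and in 11 to 18 members with 1 library left out. Chga, a secretory granule protein, was at 72.2, 109 and 80.6 CPM and at 25.7, 15.7 and 19.3 CPM (-2.12 ± 0.26, adjusted p = 3.74e-05), and the hormone genes Tac1 and Sct were lower by 1.68 and 1.84 on the log2 scale (SE 0.22 and 0.30). Tuft cell genes were lower in 6 of 14 tested members and higher in none (median -1.18), at low levels: Dclk1 was at 7.9, 9.68 and 12.5 CPM and at 3.15, 3.42 and 2.97 CPM (-1.67 ± 0.26, adjusted p = 0.000324), Rgs13 was lower by 2.83 on the log2 scale (SE 0.43), and the tuft cell factor Pou2f3 by 1.75 (SE 0.37).

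Absorptive enterocyte genes showed the lowest median of the cell type lists, -2.11: 26 of 33 tested members were lower and 1 higher. This rank too is a description only, since the lists were chosen with earlier results known. Slc6a19, the neutral amino acid transporter, was at 49.9, 68.5 and 101 CPM in Matrigel and at 1.46, 0.508 and 0.797 CPM in collagen (-6.31 ± 0.35, adjusted p = 8.89e-08). Sis (ENSMUSG00000027790.15), the disaccharidase sucrase-isomaltase, was at 169, 141 and 198 CPM and at 3.02, 8.5 and 11.6 CPM (-4.47 ± 0.38, adjusted p = 1.81e-06). The apolipoprotein Apoa4, needed for chylomicrons, was at 492, 372 and 340 CPM and at 11.1, 10.8 and 25.8 CPM (-4.66 ± 0.29, adjusted p = 1.84e-07). For these 3 genes every collagen library was more than an order of magnitude below every Matrigel library. Alpi, the brush border alkaline phosphatase, varied more in collagen, at 14.9, 109 and 136 CPM against 572, 621 and 734 CPM in Matrigel (-2.90 ± 0.64, adjusted p = 0.00353). Rbp2 (-5.68 ± 0.44), a retinol carrier, and Apoa1 (-4.01 ± 0.26) were also lower. The single higher member was Cdhr2, an adhesion protein between microvilli (0.44 ± 0.11, adjusted p = 0.00845). Vil1, the actin bundler of the brush border, was at 345 ± 18.4 and 360 ± 8.99 CPM and was not called. Of 11 tested genes of the villus tip 4 were higher and 3 lower (median 0.26), beside 15.8% and 15.4% of all tested genes. Among them Tgfb1 was higher (2.35 ± 0.27) and the factor Creb3l3 lower (-2.52 ± 0.33).

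Factors that set intestinal identity were lower in 7 of 16 tested members and higher in 3 (median -0.29). Over all tested genes, 15.4% were lower and 15.8% higher. Cdx1 was at 354, 389 and 385 CPM in Matrigel and at 126, 157 and 149 CPM in collagen (-1.39 ± 0.18, adjusted p = 5.66e-05), whereas Cdx2 was at 177 ± 2.05 and 185 ± 4.07 CPM and was not called (0.05 ± 0.10, adjusted p = 0.719). Hnf4g (-1.74 ± 0.22) and Isx (-1.13 ± 0.11), factors of enterocytes, were lower, and the pioneer factor Foxa1 was higher (0.76 ± 0.12).

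Enzymes of xenobiotic and glutathione metabolism, many of which mature enterocytes carry, were lower in 18 of 24 tested members and higher in 1, with a median of -1.56. Cyp3a11, a drug-oxidising cytochrome, was at 101, 206 and 209 CPM in Matrigel and at 1.02, 0.542 and 2.25 CPM in collagen (-7.11 ± 0.64, adjusted p = 2.9e-06). Cyp2b10 was at 212, 318 and 366 CPM and at 2.9, 4.6 and 9.13 CPM (-5.77 ± 0.43, adjusted p = 5.38e-07). Aldh1a1, which makes retinoic acid, was at 198, 284 and 301 CPM and at 10, 10.5 and 9.53 CPM (-4.72 ± 0.23, adjusted p = 3.58e-08). Each of the 3 was far lower in every collagen library than in any Matrigel library. The glutathione transferases Gstm1 (-3.09 ± 0.19) and Gsta2 (-3.60 ± 0.21) and the carboxylesterase Ces2a (-4.70 ± 0.30) followed, and Gsta4 was the higher member (0.49 ± 0.14), a call also lost without COL_Control replicate 1. These genes belong to families of close relatives whose reads may be shared.

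Proliferation genes hardly differed. Mki67, a marker of cycling cells, was at 161, 145 and 161 CPM in Matrigel and at 176, 146 and 149 CPM in collagen, overlapping groups with a log2 difference of 0.01 ± 0.16 (adjusted p = 0.985). Of 21 tested G2/M genes 2 were higher and none lower (median 0.02). One was Bub1, a spindle checkpoint kinase (0.67 ± 0.18, adjusted p = 0.0104), and the other Cenpf (0.35 ± 0.12, adjusted p = 0.0438), whose call was lost without any of the 6 libraries. Of 24 S phase and replication genes 3 were lower and none higher (median -0.13), among them the helicase subunit Mcm5 (-0.42 ± 0.11) and the nuclease Fen1 (-0.47 ± 0.13). These shares lay below the 31.2% of all tested genes.

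Targets of p53, the damage-response factor, were higher in 18 of 26 tested members and lower in 1 (median 0.79), although no drug had been given. Plk2 was at 20.2, 19.8 and 20.9 CPM in Matrigel and at 180, 125 and 109 CPM in collagen (2.75 ± 0.19, adjusted p = 3.7e-07). Phlda3, an inhibitor of AKT signalling, was at 12.4, 13.6 and 8.23 CPM and at 74.8, 50.1 and 51 CPM (2.36 ± 0.18, adjusted p = 8.23e-07). Cdkn1a, the cell cycle inhibitor p21, was at 139, 99 and 67.8 CPM and at 210, 151 and 181 CPM, closer but without overlap (0.83 ± 0.19, adjusted p = 0.00426). Pmaip1 (1.61 ± 0.15), Mdm2 (1.03 ± 0.12) and Bax (0.91 ± 0.14) were higher, and Sesn1 was the lower member (-0.59 ± 0.15).

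Glycolysis and hypoxia-response genes were higher in 16 of 24 tested members and lower in none (median 0.82), with 12 to 20 higher when 1 library was left out. Hk1 (hexokinase 1) was at 33.5, 20.3 and 22.1 CPM in Matrigel and at 93, 91.8 and 89.8 CPM in collagen (1.85 ± 0.16, adjusted p = 1.62e-06). Pkm, which catalyses the last step of glycolysis, was at 2740, 1820 and 1750 CPM and at 5280, 4890 and 5160 CPM (1.28 ± 0.15, adjusted p = 2.79e-05). MG_Control replicate 1 was the nearest of its group to the collagen libraries for both genes. The glucose transporter Slc2a1 (1.20 ± 0.15) and the hypoxia target Car9 (1.16 ± 0.20) were higher too.

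Inflammatory genes rose in part: 11 of 21 NF-kB targets and mediators were higher and 4 lower (median 0.56). The chemokine Cxcl16 was at 32.2, 27.8 and 24 CPM in Matrigel and at 190, 109 and 107 CPM in collagen (2.27 ± 0.24, adjusted p = 1.19e-05), and Icam1 (2.38 ± 0.28) and the feedback inhibitor Tnfaip3 (1.57 ± 0.22) were higher. Ccl25, the chemokine of the small intestinal epithelium, was at 276, 314 and 275 CPM and at 26.4, 40.8 and 58.2 CPM (-2.79 ± 0.26, adjusted p = 3.3e-06). The 4 lower members, Ccl25, Ccl28, Pigr and Reg3b, are products that the differentiated mucosa secretes or carries. Reg3g, a relative of Reg3b on the same list, was not called (-0.02, adjusted p = 0.957). Reg3b came to -0.42 without MG_Control replicate 2 and was then not called, nor was it without COL_Control replicate 2 or 3. Pigr was not called without MG_Control replicate 2, MG_Control replicate 3 or COL_Control replicate 1.

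The genes with the largest differences, taken by size among called genes with at least 10 CPM in the higher group and no overlap, included several not on the lists. Of those higher in collagen, Cyp1b1, a cytochrome known as a target of the aryl hydrocarbon receptor, was at 0, 0.143 and 0 CPM in Matrigel and at 40.4, 41.6 and 14 CPM in collagen (9.32 ± 0.78, adjusted p = 1.63e-06). Msn (moesin), which links membrane to actin, was at 0, 0 and 0.516 CPM and at 26.5, 13.9 and 5.07 CPM, Ptpn13 at 0, 0.679 and 0 CPM and at 19.5, 10.5 and 7.72 CPM, and Gcnt1, a glycosyltransferase of O-glycans, at 0, 0.25 and 0 CPM and at 14.4, 13.7 and 6.63 CPM. Efemp1, a matrix protein, was at 0, 0 and 0.304 CPM and at 11.9, 12.2 and 11.2 CPM. Cyp1b1 had 4 counts over the Matrigel libraries, and its log2 fold change ranged from 8.71 to 12.84 with 1 library left out. These genes were absent or nearly so from Matrigel, so the size of their fold rests on 1 library: the log2 fold change of Msn was 6.27 and became 11.74 without MG_Control replicate 3, that of Efemp1 was 6.66 and became 11.37 without the same library, and those of Gcnt1 (7.09) and Ptpn13 (5.81) became 11.37 and 11.49 without MG_Control replicate 2.

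Lower in collagen by the same rule were Reg1, a secreted C-type lectin, at 424, 496 and 499 CPM in Matrigel and 2.23, 2.44 and 6.92 CPM in collagen (-6.96 ± 0.37, adjusted p = 5.3e-08), and its relative Reg3a at 32.8, 30.1 and 23.9 CPM and 0.0637, 0.169 and 0.29 CPM (-7.38 ± 0.30, adjusted p = 2.09e-08). Slc5a4b, a member of the sodium-glucose transporter family, was at 28.1, 54.2 and 47.8 CPM and at 0.159, 0.102 and 0.217 CPM (-8.07 ± 0.41, adjusted p = 1.83e-07). Ugt2b5 (-6.72 ± 0.47), the complement-related Cfhr2 (-8.15 ± 0.70), the trypsin inhibitor Spink1 (-6.60 ± 0.37) and the alkaline ceramidase Acer1 (-6.70 ± 0.78) were also among them. Cyp3a25 (-6.46) and Slc5a11 (-6.42) had counts in COL_Control replicate 3 alone of the collagen libraries, and without it their log2 fold changes were -12.86 and -11.31. Cfhr2 had counts in COL_Control replicate 2 alone of the collagen libraries, and without it the log2 fold change was -12.18. Among genes of at least 100 CPM, the metallothionein Mt2, which binds zinc and copper, was at 605, 550 and 410 CPM and at 6.11, 7.18 and 11 CPM (-6.02 ± 0.25, adjusted p = 2.09e-08), and Mt1 was lower as well (-4.01 ± 0.20).

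The same matrices were also compared in the 6 libraries with 5-FU, whose levels do not enter the log2 differences above. Both comparisons were read from 1 fit of 12 libraries, so they share the filter, the scaling and the estimate of the spread. Their cultures may also share source animals, since replicate 2 of every group carried Y-linked counts. The pair with 5-FU is therefore not shown to be an independent repeat. With 5-FU, 5905 genes (35.5%) were called, 2822 (17%) higher and 3083 (18.6%) lower. Of the 5188 genes called without the drug, 4709 (90.8%) differed in the same direction with it, a share not computed over all tested genes. Of the 5188, 3315 (63.9%) were called again in that direction, which is 56.1% of those called with 5-FU. Another 79 were called in the opposite direction. The difference itself changed with 5-FU (a called interaction of matrix and drug) for 1360 genes (8.19%), 313 (1.88%) with a more positive and 1047 (6.3%) with a more negative difference, and for 906 (17.5%) of those called without 5-FU. Lgr5 differed by 1.27 ± 0.25 with 5-FU and Col4a1 by 6.82 ± 0.70, and neither interaction was called. Ly6a was at 196 ± 80.6 CPM in Matrigel and 1380 ± 298 CPM in collagen with 5-FU (2.72 ± 0.35), a smaller difference than without (interaction -2.28 ± 0.48, adjusted p = 0.00969). Sis was at 322 ± 27.8 and 1.53 ± 0.707 CPM, a larger one (interaction -3.31 ± 0.53, adjusted p = 0.00189), and Lyz1 at 11800 ± 1780 and 1680 ± 182 CPM (interaction -1.75 ± 0.21, adjusted p = 0.000244). With 5-FU all 20 tested Paneth members, most of them alpha-defensins, and 31 of 33 enterocyte members were lower in collagen. Of the 26 p53 targets, 8 were higher and 3 lower there, and the interaction was called for 10, all negative. Of the S phase list 13 members were higher with 5-FU where none was without, and 10 interactions were called, all positive.

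**Figure D3:**
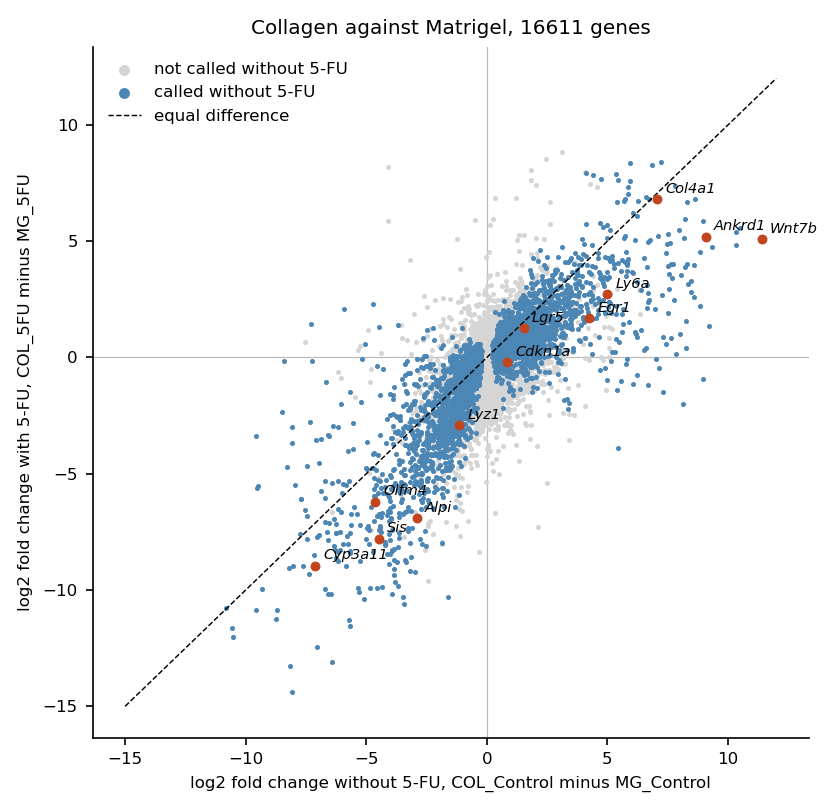
Log2 fold change of collagen over Matrigel with 5-FU (vertical) against that without (horizontal) for the 16611 tested genes, blue where called without 5-FU, with the dashed line at equal differences; the position of Wnt7b, at 0 counts in MG_Control, is a fitted value. Of the blue genes 90.8% have the same sign on both axes, and Cdkn1a is a labelled gene that does not.

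Crypts in collagen with 25% cWRNE medium (COL_cWRNE, 3 libraries) share the matrix with COL_Control but not the medium, and their levels are set beside the others without a test. Col4a1 was at 164 ± 64.6 CPM there, against 59.8 ± 35.4 in COL_Control and 0.473 ± 0.517 in MG_Control, and Lama5 at 128 ± 28.3 CPM. Ccn2 was at 788 ± 156 CPM, Ly6a at 2040 ± 281 CPM and Clu at 4290 ± 1440 CPM, each above both other groups. Among lower genes, Olfm4 was at 113 ± 53.3 CPM, Muc2 at 17.1 ± 3.05 CPM, Sis at 6.87 ± 3.57 CPM and Cyp3a11 at 5.56 ± 4.42 CPM, each below the MG_Control level. Lgr5 stood at 215 ± 46.2 CPM, between MG_Control (158 ± 42.3) and COL_Control (456 ± 51.2). Other genes did not stay on the COL_Control side. Ascl2, lower in COL_Control (32.3 ± 2.46 CPM), was at 51.9 ± 9.66 CPM in COL_cWRNE and 50.9 ± 3.31 CPM in MG_Control. The 17 tuft cell markers summed to 81.4 to 116 CPM in COL_cWRNE, above both MG_Control (45.1 to 56.1) and COL_Control (21.5 to 33). No library held Matrigel with ENRW or collagen with ENR among those analysed here.

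**Figure D4:**
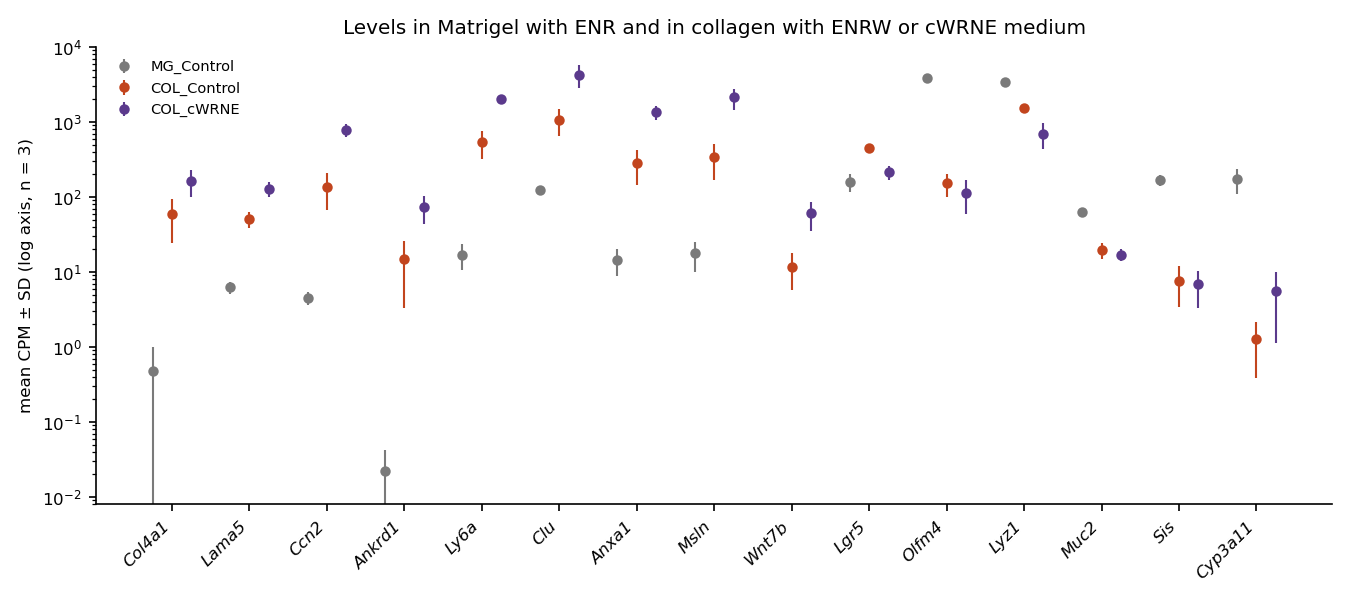
Mean CPM ± SD (n = 3, log axis) of 15 genes in Matrigel with ENR (MG_Control), collagen with ENRW (COL_Control) and collagen with 25% cWRNE medium (COL_cWRNE); Wnt7b at 0 in MG_Control lies off the axis. Both collagen groups lie on the same side of MG_Control for each gene shown, and the COL_cWRNE level of Lgr5 is close to that of MG_Control. The genes shown are a selection, and others, such as Ascl2, did not keep to this.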

How the data were processed

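RNA was sequenced from 18 libraries of mouse small intestinal epithelial cultures, 3 in each of 6 groups, made with the SMART-Seq mRNA kit. The authors deposited, per gene, an estimated count and a TPM value (transcripts per M, adjusted for length) for each library, per the file headers. Demultiplexing with bcl2fastq 2.20, DRAGEN and the build GRCm39/mm39 are named per the submitters' processing notes. The roles and settings of these tools are not given in the sources used here. Of the nonzero estimated counts 67.8% were whole within 1e-09, and all were rounded before testing. No column of other samples was present (0).

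Levels are CPM from those counts with TMM scaling over all 18 libraries. The main test was edgeR 4.0.16 (R 4.3.3), a quasi-likelihood F-test with group as the only term over the 12 libraries of the MG and COL groups with and without 5-FU, after filterByExpr (minimum count 10, total 15), with Benjamini-Hochberg adjustment over all 16611 genes tested and a threshold of 0.05. The SE is the log2 fold change divided by the root of F. For a group at 0 the fold was computed against a floor of 3 counts over the group. Ratios with 1 to 3 counts carry exact 95% intervals that cover counting error only, since no molecular identifiers were used. Depth was 22.3 M to 34.5 M counts per library. Tested on simulated counts for 16611 genes of COL_Control against MG_Control, the fit recovered 58% of genes changed 2-fold and 77% of those changed 4-fold, and called 7 unchanged genes. Only 200 genes were changed there, far fewer than were called in the data. Recovery depends on that share, so these values are not the power of the comparison itself.

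The gene comparison and the 43 gene lists (734 genes, 2 without a match in the table) were chosen with earlier results of these data known. Symbols were found for 52081 of 55414 identifiers. Genes were named by rule: the 10 per direction with the largest called change, no overlap and at least 10 CPM in the higher group; up to 4 members per list by adjusted p; a set of 24 genes; the 4 per direction with the smallest interaction p among that set and the largest changes; and the 5 per direction with the largest change at 100 CPM or more. Gene models without a proper symbol were left out of the rules on size. Another 68 genes were named after their values were seen. Some genes that these rules select are not reported here, but they remain in every fit and count. Alternatives were other scalings, filters, samples in the fit, a replicate block, each library left out, DESeq2 1.42.0, and limma 3.58.1 on log2(TPM + 1) of the deposited TPM. Apart from the RefSeq promoter stretches (GRCm38.p6), no coordinates are printed, since the annotation at hand is of another build than the files.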

Additional observations from a re-analysis of the deposited data

Results flagged for a closer look

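Of the 46 reported genes named for the size of their difference or held in the set of 24, 16 had a called interaction. They differed between collagen and Matrigel by another amount with 5-FU than without, as tested by the interaction term of edgeR's fit. Over all tested genes, 8.19% had a called interaction. For genes named for size, the difference without 5-FU is subtracted in the interaction, which favours a value of the opposite sign. Each value below is the log2 difference with 5-FU less that without, with its SE and adjusted p. All 16 are negative, beside 1047 negative and 313 positive among all called interactions, and 15 of the 16 genes had the same sign in both comparisons, Cdkn1a being the exception.

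Those of the 16 genes that were higher in collagen without 5-FU had a smaller difference with it. For the laminin gene Lama5 the value was -1.58 ± 0.24 (adjusted p = 0.00124). For the YAP target Ccn2 it was -1.49 ± 0.43 (adjusted p = 0.0471), and for the immediate early gene Egr1 -2.54 ± 0.23 (adjusted p = 4.76e-05). For the fetal-like marker Ly6a it was -2.28 ± 0.48 (adjusted p = 0.00969). Cyp1b1 gave -4.59 ± 1.14 (adjusted p = 0.0243), but it had only 4 counts over the Matrigel libraries without 5-FU, on which this value rests. Cdkn1a gave -1.03 ± 0.26 (adjusted p = 0.0282): it averaged 989 CPM in Matrigel and 918 CPM in collagen with 5-FU.

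Those of the 16 genes that were lower in collagen without 5-FU had a larger difference with it. The enterocyte genes Alpi and Sis gave -4.01 ± 0.88 (adjusted p = 0.0129) and -3.31 ± 0.53 (adjusted p = 0.00189). The Paneth gene Lyz1 gave -1.75 ± 0.21 (adjusted p = 0.000244), the goblet gene Muc2 -1.08 ± 0.20 (adjusted p = 0.00455), the tuft gene Dclk1 -2.29 ± 0.38 (adjusted p = 0.00233) and Olfm4 -1.55 ± 0.41 (adjusted p = 0.0349). Cyp2b10 gave -2.27 ± 0.56 (adjusted p = 0.023), Ugt2b5 -3.26 ± 0.72 (adjusted p = 0.0132), Spink1 -3.55 ± 0.79 (adjusted p = 0.0142) and Slc5a4b -6.30 ± 1.60 (adjusted p = 0.0336). Slc5a4b was at 0 in collagen with 5-FU, so its fitted value depends on the prior count.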

How the results depend on the processing

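For the 260 named genes, none of 3851 values under the alternatives had the opposite sign with a call on either side, although genes that were not called, such as Mki67, Mmp7, Myc, Sox9 and Wnt3, crossed 0. Of these values 3643 stayed on their side of the threshold, 175 lost the call and 33 gained it. Between 3825 genes (all 18 libraries in the fit) and 5837 (DESeq2) were called for collagen against Matrigel, beside 5188, under every alternative without a fold minimum that kept all 6 libraries. With a log2 fold change of 1 or more in size, 2215 were called (1239 higher, 976 lower). Lower calls came to 1633 with all 18 libraries and 1325 with TPM. For the pair with 5-FU, the fold minimum gave 2715 (1050 higher, 1665 lower), and TPM gave 6014 higher and 1456 lower. For the interaction, the fold minimum gave 802 (78 higher), all 18 libraries 521 (124 higher, 397 lower) and DESeq2 2219 (844 higher). Higher interactions came to 486 with RLE size factors, 486 with library totals, 681 without a filter and 809 with TPM, and lower ones to 591 with TPM. The cause was not tested.

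With 1 library left out, 3977 to 4755 genes were called (2072 to 2549 higher, 1905 to 2358 lower), 4580 to 5189 with 5-FU (2100 to 2462 higher, 2480 to 2758 lower), and 931 to 1297 interactions (168 to 322 higher, 742 to 997 lower). Replicate numbers were not treated as pairs, since the labels do not say what a number marks and not every pair correlated: deviations of same-numbered libraries correlated at 0.26, -0.046 and 0.094 over 9719 genes, and replicate 2 of every group carried Y-linked counts, a hint from the data that numbers may follow the source. A replicate block gave 5541 calls, 5063 of them shared.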

Other observations

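Markers of position along the gut were few, and their counts are read beside the 15.8% of all tested genes that were higher and the 15.4% that were lower. Of 6 tested genes of the distal small intestine, 2 were higher and 2 lower in collagen. Fgf15, a hormone induced by bile acids, averaged 0.23 CPM in Matrigel and 4.33 CPM in collagen (4.17 ± 0.58, edgeR adjusted p = 0.000125), and the bile acid importer Slc10a2 was higher by 2.04 ± 0.34. Slc51a and Slc51b, the 2 subunits of the basolateral bile acid exporter, were lower (-3.65 ± 0.32 and -3.48 ± 0.70). Of 7 proximal genes, the iron reductase Cybrd1 was higher (1.89 ± 0.42) and the factor Gata4 lower (-0.51 ± 0.13). Among 8 gastric and Brunner gland genes 2 were higher and 3 lower: the water channel Aqp5 was at 0 in Matrigel and at least 59.4-fold higher in collagen, and Gkn3 (-2.20 ± 0.28) and Pgc (-1.28 ± 0.28) were lower.

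Lipid and stress genes differed by list, beside 31.2% of all genes called in either direction. Of 20 cholesterol synthesis genes 3 were higher and 1 lower, and none was higher without COL_Control replicate 3; the lower gene was Mvk (-0.85 ± 0.09). Of 16 genes of fatty acid oxidation and ketogenesis 4 were higher, among them Acadl (0.69 ± 0.10) and Angptl4 (1.25 ± 0.23), and 6 lower, among them the peroxisomal enzyme Ehhadh (-1.07 ± 0.16). Of 18 unfolded protein and integrated stress genes 2 were higher, among them Atf3 (2.19 ± 0.26), and 6 lower, among them the factor Xbp1 (-0.63 ± 0.08). Of 15 interferon-response genes 7 were higher and 1 lower (median 1.01), with 5 higher without COL_Control replicate 3; Bst2 was higher by 1.36 ± 0.19 and Irf7 by 1.14 ± 0.21.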
